A study of Mus musculus with 12 samples.

Results

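Treadmill training of melanoma-injected mice went with a heart transcriptome in which a few stress and hormone-response genes were several-fold lower than in untrained injected mice, in each of the 3 untrained libraries. These were led by Hmox1, Mt2, Mt1, Fkbp5, Cdkn1a and Serpina3n. Genes that were higher in the trained hearts included Gpr22, Itgb6, Myh7b, Fgf16, the clock genes Dbp, Per3 and Ciart, and the vascular genes Apln, Aplnr and Vegfa. Scaling all libraries to cardiomyocyte genes moved the median log2 change of all genes to -1.38. With that scaling Apln and Vegfa turned direction and Ciart was near 0 (-0.0043). The comparison uses 6 of the 12 RNA-seq libraries of the series, chosen by their titles: 3 hearts of untrained mice given melanoma cells (tumour) and 3 hearts of trained mice given the same cells (tumour trained). All genes of the count table were examined.

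The mice were wild-type C57BL/6J males aged 8 weeks when the groups were formed. Training was treadmill running on 5 days a week for 4 weeks. The adaptation week ran from 6 to 15 m/min, and later sessions opened with 5 min of 6 m/min before 35 min of 12 m/min. Both groups compared here received 100000 B16F10 cells, a mouse melanoma line that seeds the lung when given into a vein, through the tail vein from week 2, so training began before the injection and continued after it. Untrained mice stayed in their cages. The other 6 libraries, from tumour-free control (labelled saline) and tumour-free trained mice, serve as the background level. The title of the series names systolic function during cachexia, the wasting of body mass in cancer, as its subject. Nothing in the labels ties each library to a mouse of its own, so p-values measure the spread between these libraries only.

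In cancer cachexia, tumour and host factors put the body into a state of inflammation, raised glucocorticoid hormone and fasting-like fuel use, and the heart can lose mass and force. Haem oxygenase 1 and the metallothioneins are classic stress proteins of the heart, induced by haem, oxidants, metals, cytokines and glucocorticoids. Endurance training is known to improve fuel handling and capillary supply of the heart and to lessen systemic inflammation.

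Of the 3 tumour libraries, 2 held melanoma RNA, and this bears on every value below. The pigment cell genes Dct, Mlana, Pmel, Sox10 and Tyrp1 together made up 1.08%, 0.496% and 0.00166% of the counts of tumour 1, 2 and 3, and 5.4e-04% to 8.8e-04% of those of the tumour trained libraries. The 20 cardiomyocyte genes moved the other way, with 3.93%, 9.57% and 15.0% in tumour 1, 2 and 3 and 14.7% to 15.4% in tumour trained. Total counts were 9504109 to 13344847 in the 6 libraries. The extraction text names livers where the tissue label says heart. In 11 of the 12 libraries the most abundant gene was Myh6, and Alb, the serum albumin gene of liver, did not exceed 3.93 CPM. Levels are in CPM, counts relative to the library total after TMM scaling (a trimmed mean of log ratios between libraries), so that fewer cells of a type and less RNA per cell cannot be told apart.

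Libraries also differed by the base composition of the transcripts. In the lowest of 6 equal classes of GC content (31.0% to 43.3% GC), the median log2 difference from the control mean was 0.36 to 0.43 in the tumour trained libraries, 0.03 in tumour 3, 0.14 in tumour 2 and 0.71 in tumour 1. Trained 1 and 3 stood at 0.35 and 0.38, and trained 2 at -0.30. GC-poor genes were thus high in tumour trained, trained 1 and trained 3 together. Genes called higher in tumour trained had a median GC of 44.8%, those called lower 52.7%, and all genes tested 49.9%.

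**Figure D1:**
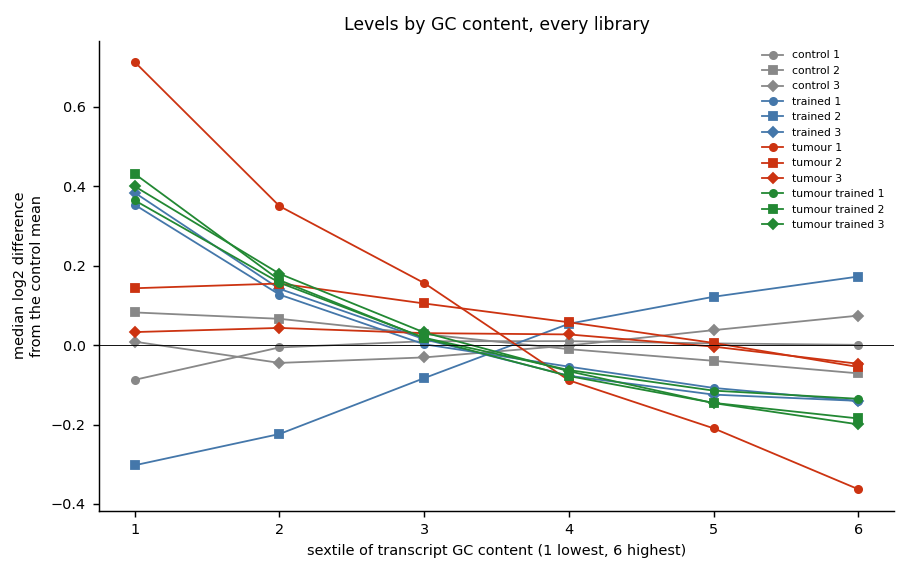
Median log2 difference from the control mean (y) in 6 equal classes of transcript GC content (x), 1 line per library, coloured by group. The tumour trained lines run with trained 1 and 3, from 0.36 to 0.43 at the GC-poor end to below 0 at the GC-rich end, while tumour 3 stays near 0.

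With edgeR's quasi-likelihood test, 1156 of 12778 genes (9.05%) had an adjusted p below 0.05 between tumour trained and tumour hearts. Of these, 229 (1.79% of those tested) were higher in tumour trained and 927 (7.25%) lower. All but 7 of the 1156 had an adjusted p of at least 0.03, and at an unadjusted p below 0.05 there were 4073 genes. Scaled to cardiomyocyte genes in place of TMM, which moved the median log2 change of all genes from -0.04 to -1.38, the split was 28 higher and 7233 lower. Leaving out any 1 of the 3 tumour trained libraries left 3 calls, and leaving out tumour 1, 2 or 3 left 111, 6 and 6619. Without control 1, 2 or 3 the count was 8, 4 and 7, and without trained 1, 2 or 3 it was 7, 1242 and 4.

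The genes were then sorted by whether all 3 tumour libraries, tumour 3 included, stood apart from tumour trained. All 3 tumour libraries lay above all 3 tumour trained libraries for 1853 genes (14.5%) and below them for 1722 (13.5%). All 229 genes called higher were among the latter, whereas 598 of the 927 genes called lower were among the former (4.68% of the genes tested). The median log2 difference of tumour 1, 2 and 3 from the tumour trained mean was 2.15, 1.52 and 0.26 for the genes called lower, and -1.50, -1.08 and -0.85 for the genes called higher. Against all 9 other libraries, the tumour-free ones included, the 3 tumour libraries were highest for 666 genes (5.21%) and lowest for 549 (4.3%). Among the called genes these were 304 of the 927 and 143 of the 229. A fit without tumour 1 and 2, in which tumour 3 alone stands for its group and is assumed to vary like the others, called 16 of 12995 genes higher (0.123%) and 77 lower (0.593%). Correcting for GC in addition, it called 135 higher (1.04%) and 211 lower (1.62%). Of the genes called with all libraries, 7 higher and 20 lower were also called in the same direction without tumour 1 and 2.

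**Figure D2:**
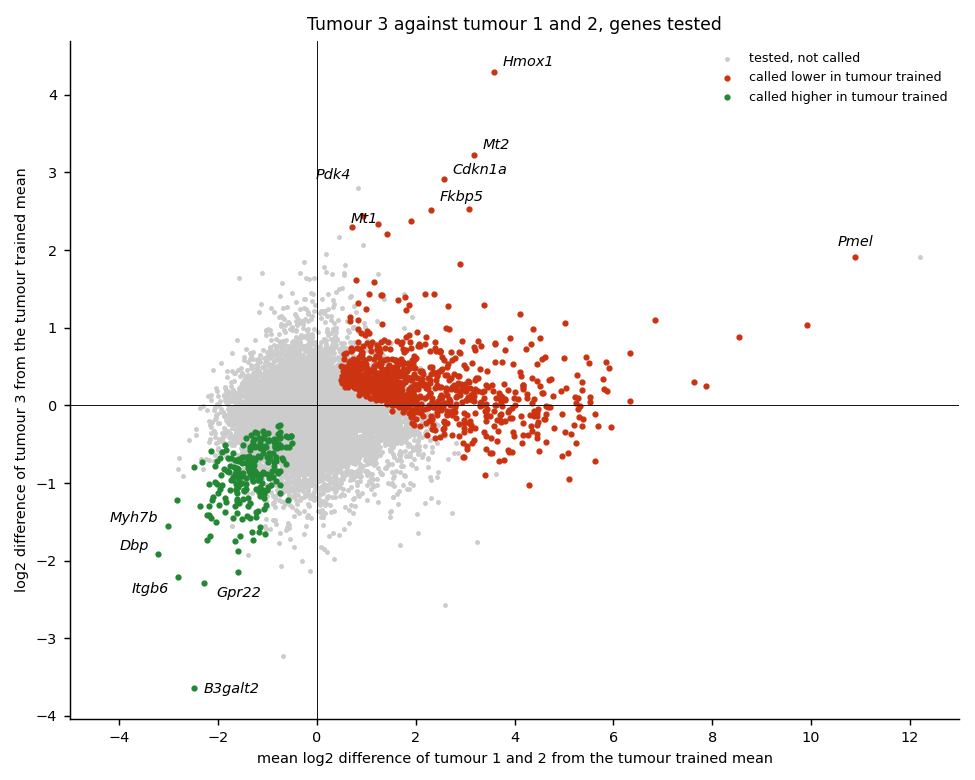
Each point is a tested gene: the mean log2 difference of tumour 1 and 2 from the tumour trained mean (x) against that of tumour 3 (y). Most genes called lower (red) spread to the right along 0 on the y axis, Hmox1, Mt2, Cdkn1a and Fkbp5 stand high on both axes, and genes called higher (green) lie below 0 on both.

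Hmox1 (gene ID 15368) encodes haem oxygenase 1, which breaks haem down to biliverdin, carbon monoxide and iron. It was at 116, 170 and 231 CPM in tumour 1, 2 and 3, compared with 12.7, 10.7 and 10.5 CPM in tumour trained 1, 2 and 3. Tumour 3, nearly free of melanoma RNA, had the highest level, and the tumour trained libraries lay close to or below the control (12.7 to 15.6 CPM) and tumour-free trained hearts (11.2 to 12.0 CPM). The log2 fold change was -3.93 ± 0.24 (SE, adjusted p = 1.55e-05), and -4.37 against tumour 3 alone (adjusted p = 7.04e-08). Ftl1, the ferritin light chain that stores iron, fell as well, by 1.73 on the log2 scale (adjusted p = 0.0357), from 1721, 1327 and 626 CPM in the tumour libraries to between 337 and 433 CPM in tumour trained. Within the tumour group its level moved with their melanoma RNA, whose part in it was not tested. Alas1, the enzyme that starts haem synthesis, rose from 65.5, 129 and 140 CPM to 241, 174 and 275 CPM (log2 1.04 ± 0.28, adjusted p = 0.0439). All 3 of its tumour libraries were below every other library, the lowest of which outside tumour was tumour trained 2. Scaled to cardiomyocyte genes it no longer passed (adjusted p = 0.999). Of the 18 tested genes of haem breakdown and iron, 1 rose and 2 fell, beside 1.79% and 7.25% of all genes, with a median log2 change of 0.01 (-0.12 without tumour 1 and 2).

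The metallothioneins, small cysteine-rich proteins that bind zinc and copper, fell together. Mt2 (gene ID 17750) was at 249, 218 and 242 CPM in tumour 1, 2 and 3, compared with 29.1, 21.3 and 26.2 CPM in tumour trained 1, 2 and 3, against 13.3 to 19.3 CPM in the tumour-free hearts. The 3 tumour libraries were nearly alike, and every tumour trained library stayed above every tumour-free one. The log2 fold change was -3.21 ± 0.18 (adjusted p = 9.69e-06). Mt1 (gene ID 17748) was at 487, 437 and 794 CPM in tumour and at 165, 167 and 184 CPM in tumour trained, where it was within the tumour-free range of 160 to 199 CPM (log2 -1.73 ± 0.22, adjusted p = 0.0127). Without tumour 1 and 2 the changes were -3.26 and -2.22 (adjusted p = 7.48e-06 and 6.61e-06). Of 13 tested genes of metallothioneins and zinc transport, 3 fell (7.25% of all genes) and none rose. The third was the zinc importer Slc39a6 (log2 -2.38), which did not pass without tumour 1 and 2 (adjusted p = 0.459).

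The 2 metallothionein genes are neighbours on mouse chromosome 8, and their promoters are known for metal response elements, the sites bound by the zinc-sensing factor MTF1. The 250 bases before each start site (RefSeq, GRCm38.p6, plus strand, 5′ to 3′) are shown because this pair of genes fell together; capitals mark matches to TGCACNC or TGCGCNC, the element's core, on either strand.
Mt2, chr8:94172368-94172617: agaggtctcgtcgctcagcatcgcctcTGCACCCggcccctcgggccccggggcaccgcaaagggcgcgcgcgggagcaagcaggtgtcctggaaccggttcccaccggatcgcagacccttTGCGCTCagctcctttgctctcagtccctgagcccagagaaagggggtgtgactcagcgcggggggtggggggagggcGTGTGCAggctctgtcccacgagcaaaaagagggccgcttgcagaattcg
Mt1, chr8:94178839-94179088: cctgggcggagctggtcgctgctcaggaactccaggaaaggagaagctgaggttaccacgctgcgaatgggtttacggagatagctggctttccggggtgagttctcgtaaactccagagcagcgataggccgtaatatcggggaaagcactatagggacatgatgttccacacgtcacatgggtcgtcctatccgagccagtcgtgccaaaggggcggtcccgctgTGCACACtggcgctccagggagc
The Mt2 stretch held 3 matches and the Mt1 stretch 1. Only these bases before the RefSeq start were searched, so elements elsewhere are not counted, and the counts do not rank the 2 promoters. Among 32851 RefSeq promoter stretches of that length, 21.4% held at least 1 match and 5.17% at least 2. A match is a run of letters, not a measured binding site.

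Enzymes of the antioxidant programme driven by the factor NRF2 were lower too, with smaller changes. Gclm, the regulatory subunit of the enzyme that starts glutathione synthesis, was at 34.5, 40.6 and 51.6 CPM in the tumour libraries and 21.6, 27.1 and 21.5 CPM in tumour trained (log2 -0.85 ± 0.17, adjusted p = 0.0357). Its catalytic partner Gclc was at 39.5, 27.8 and 33.0 CPM and at 17.7, 18.4 and 19.5 CPM (log2 -0.85 ± 0.17, adjusted p = 0.0357). Neither overlapped between the groups, and all 3 tumour libraries exceeded all 9 others for both genes. Gclm also passed against tumour 3 alone (log2 -1.16, adjusted p = 0.00542), and Gclc did not (adjusted p = 0.0544). Of 29 tested genes of the list, 8 fell and none rose (7.25% of all genes fell), with a median log2 change of -0.30 (-0.25 without tumour 1 and 2). Others were Srxn1, which repairs peroxiredoxins (log2 -0.57 ± 0.16), and Txnrd1, which reduces thioredoxin (-1.18 ± 0.27). Txnrd1 was at 211, 143 and 76.2 CPM in tumour 1, 2 and 3, with tumour trained at 62.7 to 64.1 CPM, an order that follows the melanoma RNA, whose part was not tested.

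Genes induced by glucocorticoid hormone were led by Fkbp5 (gene ID 14229), a co-chaperone that limits the hormone's receptor. It was at 85.0, 70.2 and 89.5 CPM in tumour and at 14.0, 20.5 and 12.3 CPM in tumour trained, next to 14.8 to 18.1 CPM in tumour-free hearts. The groups were far apart in every library (log2 -2.38 ± 0.19, adjusted p = 2.48e-04), and tumour 3 alone gave -2.54 (adjusted p = 2.01e-04). Cdkn1a (gene ID 12575), a cell cycle inhibitor induced by p53 and by glucocorticoids, was at 185, 132 and 199 CPM in the tumour libraries and 14.3, 33.7 and 36.8 CPM in tumour trained (log2 -2.61 ± 0.39, adjusted p = 0.0357). Control hearts spread from 60.5 to 148 CPM and overlapped the tumour range, while all 3 tumour trained libraries were below the lowest control and 2 of them below the lowest tumour-free trained library (35.2 CPM). Fam107a, a stress-induced actin-binding protein, was at 13.5, 18.7 and 21.7 CPM and at 4.65, 8.52 and 8.10 CPM (log2 -1.34 ± 0.31, adjusted p = 0.0357). The receptor gene itself, Nr3c1, moved the other way: 51.1, 55.8 and 57.4 CPM in the tumour libraries and 107, 125 and 116 CPM in tumour trained (log2 1.08 ± 0.22, adjusted p = 0.0357). Its level was also high in trained 1 and 3 (109 and 112 CPM) and low in trained 2 (58.5 CPM), the pattern of GC-poor genes. With GC correction the change of Nr3c1 was 0.94 in the edgeR fit of all libraries (adjusted p = 0.0348) and 0.72 without tumour 1 and 2. Scaled to cardiomyocyte genes the change was -0.22. Of the 25 tested genes of the list, 4 fell and 1 rose, against 7.25% and 1.79% of all genes, with a median log2 change of -0.02 (-0.37 without tumour 1 and 2, with 4 lower against 0.593% of all genes).

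**Figure D3:**
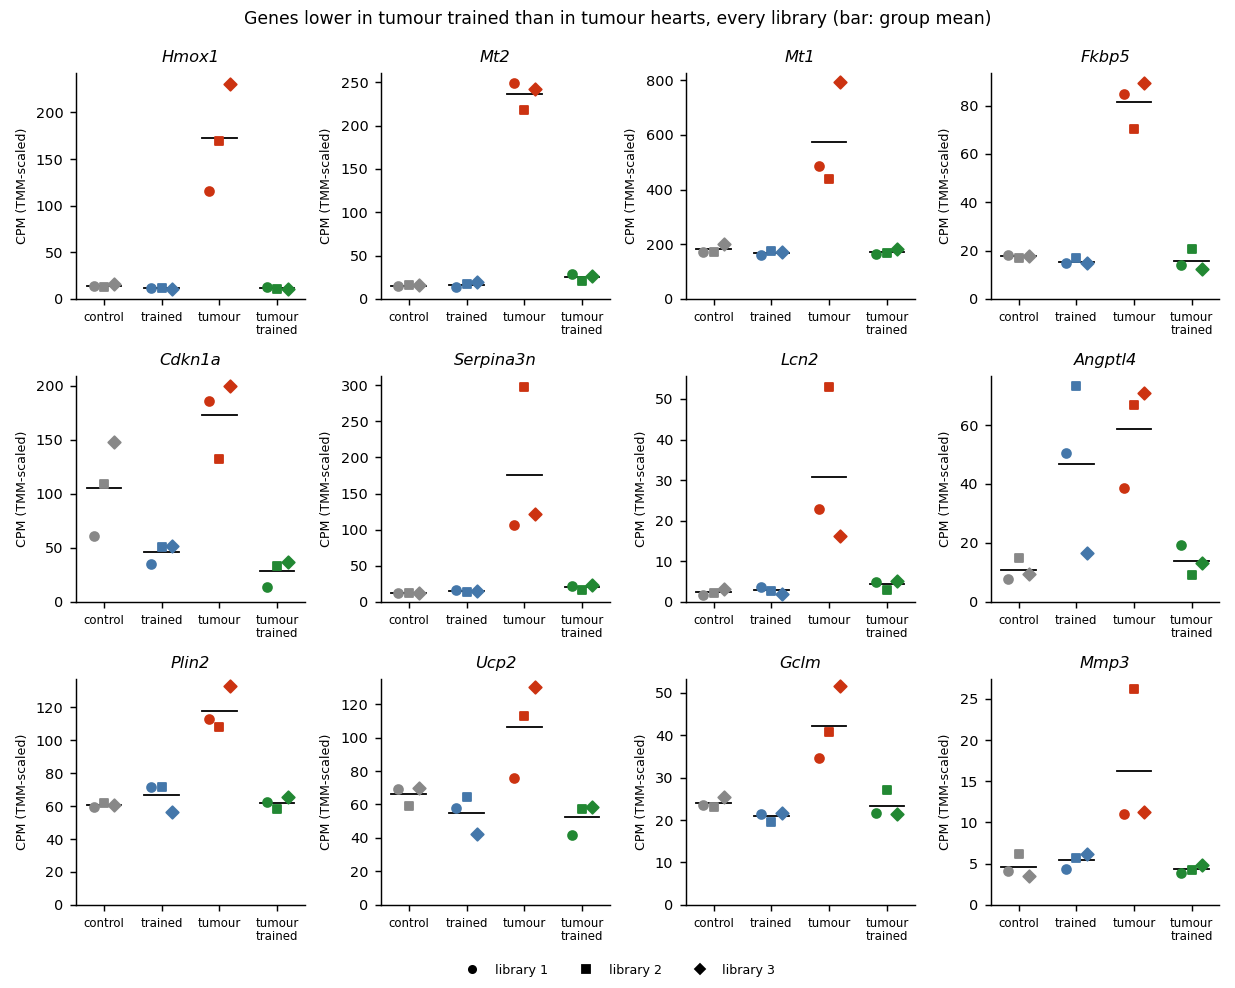
TMM-scaled CPM (y, linear from 0) of 12 genes lower in tumour trained than in tumour hearts, 1 point per library, with marker shape for the library number and a bar for the group mean. The 3 tumour points (red) lie above the 3 tumour trained points (green) in every panel. The highest tumour point is tumour 3 for Hmox1, Mt1, Fkbp5, Cdkn1a, Angptl4, Plin2, Ucp2 and Gclm.

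The acute phase gene Serpina3n (gene ID 20716), a secreted protease inhibitor, was at 106, 298 and 121 CPM in tumour 1, 2 and 3, compared with 22.2, 17.0 and 23.1 CPM in tumour trained. Tumour 2 was far above the other 2, and all tumour trained libraries exceeded the tumour-free range of 12.2 to 16.2 CPM. The log2 fold change was -3.07 ± 0.35 (adjusted p = 0.00566), and -2.56 against tumour 3 alone (adjusted p = 2.10e-05). Lcn2, the iron-carrier-binding lipocalin 2, was at 22.9, 53 and 16.3 CPM and at 4.86, 3.02 and 5.26 CPM (log2 -2.81 ± 0.44, adjusted p = 0.0357). The complement gene C4b fell from 42.5, 56.7 and 40.2 CPM to 32.4, 17.7 and 30.4 CPM (log2 -0.79 ± 0.22, adjusted p = 0.0497), and all tumour trained libraries remained above the tumour-free range of 13.4 to 16.6 CPM. Of 20 tested acute phase and interleukin 6 pathway genes, 4 fell (7.25% of all genes) and none rose, with a median of -0.56 (-0.31 without tumour 1 and 2). The fourth, the protease inhibitor Timp1, stood at 40.1, 71.2 and 3.69 CPM in tumour 1, 2 and 3, compared with up to 4.12 CPM in tumour trained, so tumour 3 did not stand apart.

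Of 40 tested genes of lipid storage and of the fasting response, many of them targets of the PPAR receptors, 3 fell and none rose, a share close to that of all genes (7.25% lower). Angptl4, a secreted inhibitor of lipoprotein lipase, was at 38.6, 66.8 and 70.7 CPM in the tumour libraries and 19.3, 9.17 and 13 CPM in tumour trained (log2 -2.08 ± 0.49, adjusted p = 0.0357). The lipid droplet coat gene Plin2 was at 113, 108 and 133 CPM and at 62.5, 58.4 and 65.3 CPM (log2 -0.93 ± 0.14, adjusted p = 0.0357). The mitochondrial carrier gene Ucp2 was at 75.8, 113 and 130 CPM and at 41.6, 57.5 and 58.3 CPM (log2 -1.02 ± 0.23, adjusted p = 0.0357). None of these 3 overlapped between the groups, but Angptl4 in tumour-free trained hearts (50.4, 73.3 and 16.5 CPM) reached the tumour level. Plin2 and Ucp2 also passed without tumour 1 and 2 (adjusted p = 0.00436 and 0.0197), and Angptl4 did not (adjusted p = 0.0962). The median log2 change of the list was 0.36. Without tumour 1 and 2 it was -0.31, and 11 fell (0.593% of all genes).

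Among the 9 that passed only in the fit without tumour 1 and 2, the pyruvate dehydrogenase kinase Pdk4, which turns off glucose oxidation, was at 753, 1393 and 4002 CPM in tumour 1, 2 and 3, compared with 417, 886 and 511 CPM in tumour trained. Tumour 1 lay inside the tumour trained range, and the log2 change was -1.76 ± 0.60 with all libraries (adjusted p = 0.0787) and -2.74 against tumour 3 (adjusted p = 0.0328). The thioesterase Acot1 was at 41.3, 23.2 and 104 CPM and at 21.3, 29.9 and 18.3 CPM, with tumour 3 alone far above the rest. Cpt1a, which admits fatty acids to the mitochondrion, was above the tumour trained range in all 3 tumour libraries (83.6, 88.4 and 122 against 63.3 to 70.0 CPM; adjusted p = 0.0583, and 0.0197 against tumour 3). The heart-muscle form Cpt1b was at 219, 497 and 906 CPM in the tumour libraries and 697 to 796 CPM in tumour trained and did not pass in either fit (log2 0.48 and -0.29).

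Genes of autophagy and of muscle breakdown showed the same split by library. The mitophagy receptor gene Bnip3 was at 328, 348 and 697 CPM in tumour 1, 2 and 3, compared with 273, 365 and 326 CPM in tumour trained. Gabarapl1, an autophagosome protein, was at 89.4, 111 and 272 CPM and at 128, 140 and 128 CPM. Both passed against tumour 3 alone (log2 -1.13 and -1.06, adjusted p = 0.00801 and 0.00500) and not with all libraries (adjusted p = 0.205 and 0.599); without tumour 3, Gabarapl1 was higher in tumour trained by 0.42. The autophagy adaptor Sqstm1 was above the tumour trained range in all 3 tumour libraries (802, 759 and 942 against 480 to 638 CPM) and did not pass (adjusted p = 0.0628). No member of the 29 tested autophagy genes was called with all libraries, beside 1.79% of all genes called higher and 7.25% called lower. The atrophy ligases Trim63 (74.8, 189 and 376 CPM in tumour, tumour trained 227 to 248 CPM) and Fbxo32 (89.0, 172 and 262 CPM, tumour trained 208 to 238 CPM) did not pass with all libraries. Their log2 changes were 0.16 and 0.37, and -0.67 and -0.23 without tumour 1 and 2. Of the 27 tested atrophy genes 1 fell (7.25% of all genes). The median log2 change of these 27 was 0.12, and -0.28 without tumour 1 and 2.

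Several other genes that were high in all 3 tumour libraries followed the order of the melanoma RNA. Rhou, a small GTPase of the cytoskeleton, was at 56.0, 26.0 and 19.8 CPM in tumour 1, 2 and 3, compared with 8.87, 5.72 and 6.63 CPM in tumour trained (log2 -2.26 ± 0.35, adjusted p = 0.0357), and passed against tumour 3 alone (-1.50, adjusted p = 0.0111). The ciliary neurotrophic factor receptor gene Cntfr (29.3, 8.77 and 5.91 CPM) and the membrane receptor gene Paqr6 (10.8, 5.15 and 1.38 CPM) had the same order, as did Epop, a chromatin factor (7.84, 4.52 and 3.32 CPM). In tumour trained these 3 were at 1.58 to 3.27, 0.105 to 0.431 and 0.631 to 1.48 CPM. None of them passed against tumour 3 alone (adjusted p = 0.260, 0.207 and 0.152), and the part of melanoma RNA in them was not tested.

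Of 42 tested matrix and fibrosis genes, 9 fell (7.25% of all genes) and none rose. Tumour 3 lay above the tumour trained range in 4 of these 9, beside 599 of all 927 genes called lower. The collagen cross-linking enzyme Lox was at 49.95, 43.6 and 14.1 CPM in tumour 1, 2 and 3, compared with 6.76, 6.15 and 7.89 CPM in tumour trained (log2 -2.37 ± 0.43, adjusted p = 0.0357). The membrane protease Mmp14 was at 135, 122 and 36.9 CPM and at 21, 22 and 24.6 CPM (log2 -2.12 ± 0.36, adjusted p = 0.0357). The stromelysin Mmp3 was at 11.1, 26.2 and 11.3 CPM and at 3.91, 4.21 and 4.84 CPM (log2 -1.90 ± 0.36, adjusted p = 0.0357). These 3 were above all 9 other libraries in tumour. Of the fibrillar collagens, Col1a2 was called lower (263.9, 350.3 and 100.4 CPM; 94.7 to 112 CPM; log2 -1.17 ± 0.33, adjusted p = 0.0498), with tumour 3 inside the tumour trained range and 0.06 without tumour 1 and 2 (adjusted p = 0.882). Col1a1 and Col3a1 did not pass, with Col1a1 at 254, 408 and 67.6 CPM and 77.5 to 98.2 CPM, and Col3a1 at 450, 834 and 112 CPM and 159 to 251 CPM. Tumour 3 was the lowest of the 6 libraries for both Col1a1 and Col3a1. The list's median log2 change was -0.70, and 0.05 without tumour 1 and 2.

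Beside the genes above, those that fell both with all libraries and without tumour 1 and 2 included Bcl2l1, which encodes the survival protein BCL-xL, at 65.7, 87.5 and 98.6 CPM in the tumour libraries and 33.2, 40.5 and 35.5 CPM in tumour trained (log2 -1.21 ± 0.18, adjusted p = 0.0357). They also included the lipocalin Apod (12.6, 22.3 and 22.4 CPM; 10.2 to 10.5 CPM) and Lrg1, a glycoprotein of the acute phase (36.6, 101 and 108 CPM; 33.8 to 37.5 CPM). These 3 were named after their values were seen. Apod and Bcl2l1 did not overlap between the groups, and tumour 1 lay inside the tumour trained range for Lrg1.

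Many genes that fell had no difference to speak of in tumour 3. Of 28 tested cell cycle genes, 24 fell (7.25% of all genes) with a median log2 change of -4.38, and without tumour 1 and 2 the median was 0.02. The mitotic kinases Cdk1 (98.0, 44.1 and 1.2 CPM in tumour 1, 2 and 3) and Plk1 (62.7, 34.4 and 1.11 CPM) were at most 0.947 CPM in tumour trained. The glycolytic enzyme Eno1 (2764, 1137 and 209 CPM; 171 to 200 CPM in tumour trained) and the serine synthesis enzyme Psat1 (110, 44.7 and 3.97 CPM; 1.62 to 3.27 CPM) had the same order of the tumour libraries as the pigment gene Pmel (1823, 897 and 2.03 CPM). Pmel in tumour 3 was above the 0.108 to 0.211 CPM of tumour trained. Sox10 was at 323, 140 and 3.51 CPM and at 0.755 to 1.90 CPM, and Dct at 2521, 1817 and 10.2 CPM and at 3.38 to 6.94 CPM. In tumour 3 all 3 pigment genes exceeded every library of the other groups.

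Among the genes higher in tumour trained hearts, 4 heart and epithelial genes were low in the tumour libraries against all 9 others. Gpr22 (gene ID 73010), an orphan receptor of heart muscle and brain, was at 7.12, 10.6 and 8.68 CPM in tumour and at 40.4, 49.6 and 43.0 CPM in tumour trained (log2 2.33 ± 0.33, adjusted p = 0.0292). The tumour trained libraries were also above the controls (15.7 to 29.1 CPM) and the trained libraries (16.7 to 39.1 CPM). Gpr22 is itself GC-poor (35.4% GC), and trained 1, 2 and 3 stood at 39.1, 16.7 and 33.4 CPM, the split of the GC-poor genes. Itgb6 (gene ID 16420), an integrin subunit that activates transforming growth factor beta, was at 0.718, 6.33 and 3.88 CPM and at 18.4, 17.7 and 23.7 CPM (log2 2.46 ± 0.51, adjusted p = 0.0357). Myh7b (gene ID 668940), a slow-type myosin heavy chain, was at 5.80, 12.5 and 24.6 CPM and at 74.3, 78.6 and 66.8 CPM (log2 2.37 ± 0.39, adjusted p = 0.0357). Fgf16, a heart-expressed growth factor chosen with its values already seen, had 1.91, 9.54 and 6.37 CPM and at 25.1, 21.4 and 21 CPM (log2 1.93 ± 0.41, adjusted p = 0.0357).

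Itgb6, Myh7b and Fgf16 in tumour trained were within or above the tumour-free range, and tumour 1, the library with the fewest cardiomyocyte counts, was the lowest for all 3. Against tumour 3 alone they were higher by 2.34, 1.56 and 1.80 (adjusted p = 0.00370, 0.0115 and 0.00348), and Gpr22 by 2.34 (adjusted p = 0.0624; 1.69 and 0.00808 with GC correction). Scaled to cardiomyocyte genes, the changes of Itgb6, Myh7b, Fgf16 and Gpr22 were 1.67, 1.56, 1.05 and 1.11, and Gpr22 no longer passed (adjusted p = 0.0786). In all, 7 genes were called higher both with all libraries and without tumour 1 and 2. Beside Itgb6, Myh7b and Fgf16 these were the ephrin receptor Epha4 (9.87, 32.6 and 33.5 CPM in tumour, tumour trained 71.1 to 76.7 CPM), the immune-checkpoint ligand Cd200 (10.1, 27.2 and 24.5; 46.6 to 59.8 CPM), Lrrc3b (4.49, 18.3 and 17.4; 33.0 to 42.2 CPM) and Efr3b (6.88, 14.8 and 12.0; 23.0 to 24.8 CPM). These 4, named after their values were seen, were below all 9 other libraries in tumour.

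Others by rank were lowly expressed. The epithelial factor Grhl2 (0.299, 0.557 and 1.11 CPM in tumour, tumour trained 2.70 to 5.38 CPM), the protease Tmprss13 (0.120, 0.626 and 0.923; 2.16 to 4.75 CPM) and the carboxylesterase Ces2e (0.299, 0.626 and 0.831; 2.16 to 4.10 CPM) were called, and within the tumour group their levels had the order of the cardiomyocyte share. The kinase anchor Akap5 (0.658, 0.626 and 0.277; 2.16 to 3.91 CPM), the steroid-metabolising Akr1c14 (1.26, 2.23 and 2.68; 6.69 to 9.61 CPM) and Mfap3l (1.97, 3.97 and 4.89; 13.7 to 14.8 CPM) were below all 9 others in tumour as well, and the last 2 had the GC-poor split of the trained libraries (6.95, 3.04 and 8.83 CPM for Akr1c14; 17.2, 5.12 and 14.5 CPM for Mfap3l in trained 1, 2 and 3). Of the 15 highest-ranked genes, 10 were below all 9 other libraries in tumour, beside 143 of all 229 genes called higher and 4.3% of all genes tested. The ranking itself asked for low levels in all 3 tumour libraries. Scaled to cardiomyocyte genes, 6 of the 15 were called higher.

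**Figure D4:**
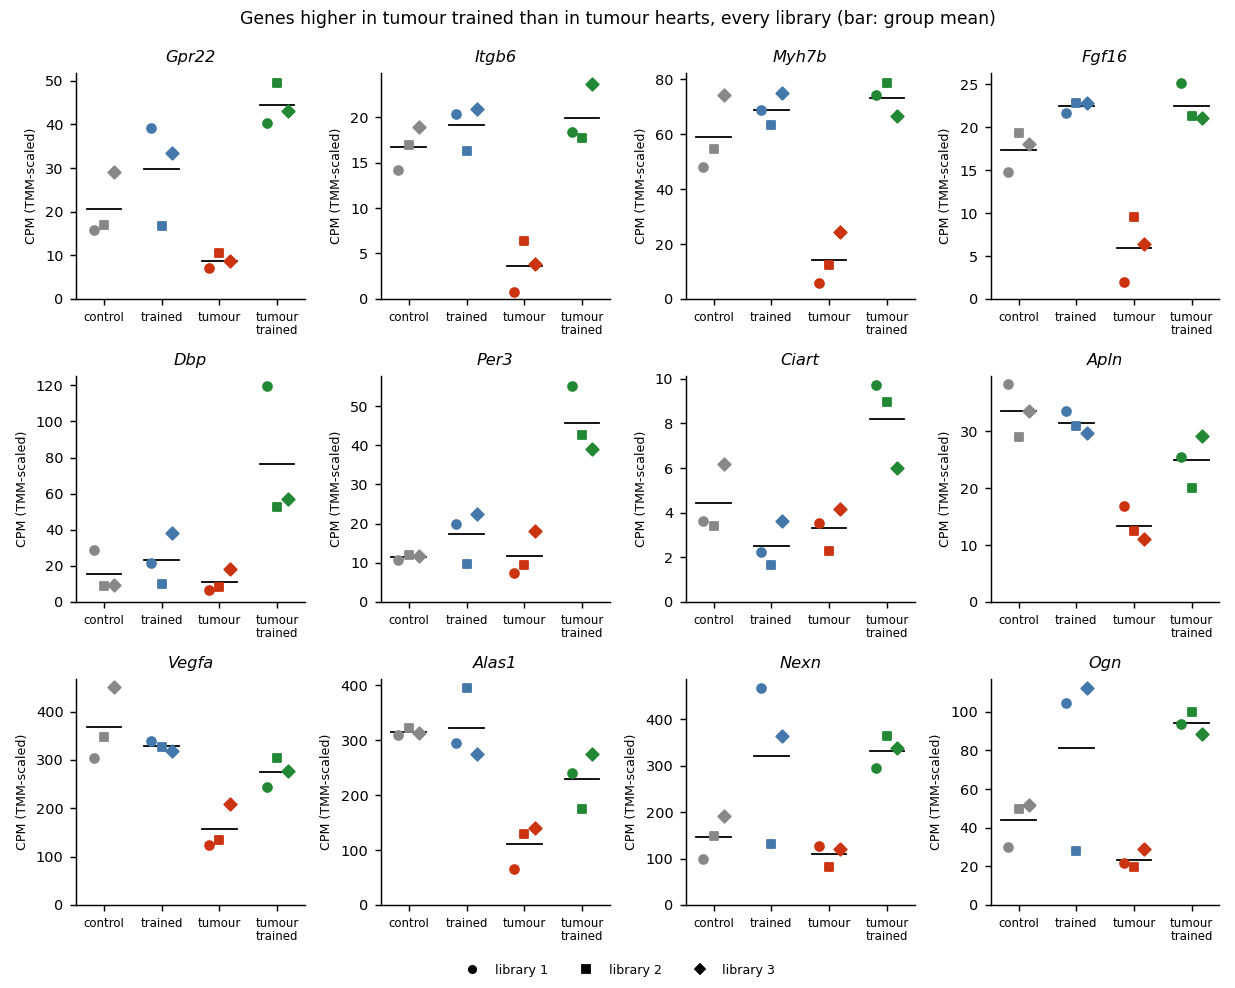
TMM-scaled CPM (y, linear from 0) of 12 genes whose tumour trained mean exceeded the tumour mean, 1 point per library, with marker shape for the library number and a bar for the group mean. Itgb6, Myh7b and Fgf16 are low in tumour (red) against every other library, whereas Dbp and Per3 are highest in tumour trained (green) and Nexn and Ogn are high in trained 1 and 3 and low in trained 2 (blue).

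Of the clock genes, 5 rose, and for Per3, Dbp, Nr1d2 and Hlf all 3 tumour trained libraries lay above the tumour-free range. The circadian clock is a loop in which BMAL1 (gene Arntl) and CLOCK switch on their own repressors and the output factor DBP, through E-box sequences, and DBP acts in turn on D-box sequences. Per3, a period-family repressor, was at 7.42, 9.47 and 18.0 CPM in tumour and at 55.2, 42.5 and 38.9 CPM in tumour trained (log2 1.98 ± 0.35, adjusted p = 0.0357), against 9.80 to 22.4 CPM in the tumour-free hearts. Dbp was at 6.34, 8.28 and 18.5 CPM and at 119, 52.4 and 57.0 CPM (log2 2.80 ± 0.63, adjusted p = 0.0357), against 8.96 to 38.4 CPM. For both genes the 3 tumour trained libraries exceeded the other 9.

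Ciart, a repressor of BMAL1 and CLOCK, was at 3.53, 2.30 and 4.15 CPM in tumour and at 9.71, 8.95 and 6.00 CPM in tumour trained (log2 1.31 ± 0.36, adjusted p = 0.0484), and its lowest tumour trained value was inside the tumour-free range (up to 6.20 CPM). Nr1d2, a nuclear receptor that represses Arntl, was at 42.1, 53.7 and 61.3 CPM and at 154, 147 and 151 CPM (log2 1.53 ± 0.32, adjusted p = 0.0357). Its level was 85.8, 38.8 and 109 CPM in trained 1, 2 and 3, the split of the GC-poor genes. Hlf, a relative of DBP, was at 13.8, 18.1 and 23.2 CPM and at 40.0, 33.5 and 30.3 CPM (log2 0.92 ± 0.23, adjusted p = 0.0369). Arntl, which peaks opposite to these genes, was at 14.8, 21.8 and 37.8 CPM in tumour and at 8.24, 16.0 and 16.5 CPM in tumour trained, against 25.7 to 40.5 CPM in tumour-free hearts. It was lowest in the tumour trained group and did not pass (log2 -0.86 ± 0.34, adjusted p = 0.110; -1.49 and 0.0514 against tumour 3, where it passed with GC correction, adjusted p = 0.0188). Nr1d1 did not pass either (26.7, 90.3 and 95 CPM; 214, 143 and 133 CPM; adjusted p = 0.0710), and here it was the tumour libraries that lay below the tumour-free range of 97.2 to 167 CPM. Of 9 tested clock activators and outputs 2 rose, and of 10 repressors 3 rose (1.79% of all genes), with medians of 0.03 and 0.41. None of the 19 was called without tumour 1 and 2. Scaled to cardiomyocyte genes, Dbp, Per3 and Nr1d2 changed by 1.85, 0.96 and 0.32, and Ciart and Hlf by -0.0043 and -0.23. The sources used here do not give the hour of tissue collection, and its part was not tested.

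The 250 bases before the start sites of Ciart and Per3 (RefSeq, GRCm38.p6, minus strand, 5′ to 3′) are shown as the risen clock genes whose stretch holds letters of the clock's own elements; capitals mark the E-box CACGTG, which reads alike on both strands and is counted once, and TTATGNAA, a D-box core, on either strand.
Ciart, chr3:95882229-95882478: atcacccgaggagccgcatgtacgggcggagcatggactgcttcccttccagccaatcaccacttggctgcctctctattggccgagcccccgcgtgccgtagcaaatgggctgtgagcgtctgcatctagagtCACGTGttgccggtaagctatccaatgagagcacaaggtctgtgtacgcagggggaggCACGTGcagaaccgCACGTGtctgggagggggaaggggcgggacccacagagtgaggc
Per3, chr4:151044666-151044915: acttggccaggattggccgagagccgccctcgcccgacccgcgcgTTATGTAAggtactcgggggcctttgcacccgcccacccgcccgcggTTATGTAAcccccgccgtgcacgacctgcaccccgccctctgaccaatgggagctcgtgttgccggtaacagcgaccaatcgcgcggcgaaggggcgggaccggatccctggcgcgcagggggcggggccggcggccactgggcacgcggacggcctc
The Ciart stretch held 3 E-boxes and the Per3 stretch 2 D-box matches and no E-box. These 2 were picked for their matches: the stretches of Dbp, Hlf and Nr1d2 held neither. Of the 5 risen clock genes, 1 thus had an E-box and 1 a D-box match, and of 11 clock genes that did not pass and had a stretch, 4 had an E-box and 1 a D-box match. Among 32851 promoter stretches of that length 6.02% held an E-box and 3.07% a D-box match. Nothing about the clock factors is read from these letters.

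Of 24 tested genes of blood vessel growth, 5 rose in tumour trained (1.79% of all genes) and none fell. Of these 5, Apln and Vegfa turned under cardiomyocyte scaling. In tumour, 7 of the 24 were below all 9 other libraries, beside 4.3% of all genes. Apln, the apelin peptide, was at 16.8, 12.5 and 11.0 CPM in tumour and at 25.6, 20.1 and 29.1 CPM in tumour trained (log2 0.89 ± 0.20, adjusted p = 0.0357), while tumour-free hearts had 28.9 to 38.3 CPM. Its receptor gene Aplnr was at 11.5, 18.0 and 18.1 CPM and at 53.3, 40.8 and 38.7 CPM (log2 1.48 ± 0.37, adjusted p = 0.0369). Vegfa, the main endothelial growth factor, was at 125, 135 and 210 CPM and at 243, 304 and 276 CPM (log2 0.81 ± 0.22, adjusted p = 0.0466), against 304 to 451 CPM in tumour-free hearts. Its co-receptor Nrp1 was at 67.2, 117 and 110 CPM and at 225, 199 and 227 CPM (log2 1.14 ± 0.26, adjusted p = 0.0357), and had the GC-poor split of the trained libraries (217, 127 and 251 CPM).

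Apln and Vegfa in tumour trained therefore lay between the tumour and most tumour-free libraries. Scaled to cardiomyocyte genes, the changes of Apln and Vegfa turned to -0.62 and -0.36, and those of Aplnr and Nrp1 were 0.33 and 0.01. Against tumour 3, whose cardiomyocyte share was that of the other hearts, the changes of Apln, Vegfa, Aplnr and Nrp1 were 1.17, 0.37, 1.27 and 0.96. With GC correction in addition they were 1.28, 0.46, 1.36 and 0.66, and with cardiomyocyte scaling in addition 1.22, 0.43, 1.34 and 1.02. These values rest on 1 tumour library. The summed level of 15 endothelial genes was 1112, 2225 and 3275 CPM in tumour 1, 2 and 3 and 2560.5 to 2624 CPM in tumour trained, so the sum was highest in tumour 3. For 5 of the 15, all 3 tumour libraries were below all 3 tumour trained libraries, beside 13.5% of all genes. The 5 included the receptor gene Kdr, at 55.7, 154 and 231 CPM and at 250.2 to 275 CPM.

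Of 27 tested genes of adrenergic and G protein receptor signalling, 6 rose (1.79% of all genes) and none fell, among them Gpr22 and Aplnr. Npr3, the clearance receptor of natriuretic peptides, was at 6.10, 4.80 and 8.86 CPM in tumour and at 22.2, 22.1 and 18.4 CPM in tumour trained (log2 1.67 ± 0.32, adjusted p = 0.0357), with 14.6, 7.03 and 17.4 CPM in trained 1, 2 and 3. Rgs2, a brake on Gq-coupled receptors, was at 15.0, 25.5 and 29.0 CPM and at 54.8, 76.0 and 53.6 CPM (log2 1.41 ± 0.25, adjusted p = 0.0357). For both, all 3 tumour trained libraries were above all 9 others. None of the 6 was called without tumour 1 and 2.

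A further group of higher genes shared the pattern of the GC-poor transcripts. The osteoglycin gene Ogn, a matrix proteoglycan, was at 21.6, 19.7 and 29.0 CPM in tumour and at 93.8, 99.7 and 88.5 CPM in tumour trained (log2 2.01 ± 0.42, adjusted p = 0.0357), with 104 and 112 CPM in trained 1 and 3 and 27.7 CPM in trained 2. Nexn, the Z-disc protein nexilin, was at 127, 80.7 and 121 CPM and at 296, 363 and 339 CPM (log2 1.60 ± 0.40, adjusted p = 0.0371), with 468, 132 and 364 CPM in trained 1, 2 and 3. Trdn, the calcium-release protein triadin (log2 1.62 ± 0.40), the sarcomere protein Nebl (1.44 ± 0.33), stem cell factor Kitl (1.70 ± 0.42), the interferon-induced Ifi203 (1.62 ± 0.34) and the galactosyltransferase B3galt2 (3.02 ± 0.72) split the trained libraries in the same way. B3galt2 was at 0.479, 2.58 and 0.277 CPM in the tumour libraries and 8.10 to 10.3 CPM in tumour trained. None of these 7 passed against tumour 3 alone, and with GC correction in addition B3galt2 and Ifi203 did (adjusted p = 0.0106 and 0.0408).

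Of the 24 genes of a fixed cardiac panel, Gpr22, Apln and Vegfa rose, Cdkn1a and Gdf15 fell, and 19 did not pass. Gdf15, a stress cytokine linked to appetite loss, was at 9.63, 8.70 and 0.923 CPM in tumour 1, 2 and 3, compared with 0.647 to 1.47 CPM in tumour trained, so that tumour 3 was inside the range. The load-responsive natriuretic peptide genes overlapped between the groups: Nppa was at 341, 426 and 139 CPM and at 160, 150 and 270 CPM, and Nppb at 168, 442 and 236 CPM and at 225, 234 and 222 CPM. The fetal myosin Myh7 was at 379, 1278 and 174 CPM and at 214, 230 and 168 CPM, and Ankrd1, a stretch-responsive nuclear protein, at 764, 2981 and 343 CPM and at 1376, 1026 and 779 CPM. Skeletal actin Acta1 (95.5, 447 and 166; 116 to 261 CPM) and the fibroblast gene Postn (205, 133 and 12.4; 23.3 to 41.8 CPM) overlapped too.

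Several contraction genes were low in tumour 1 and 2 but within or above the tumour trained range in tumour 3. Myh6, the main adult myosin, was at 6525, 17896 and 35944 CPM in the tumour libraries and 32179 to 35079 CPM in tumour trained. The calcium pump Atp2a2 was at 3873, 11709 and 21265 CPM and at 16726 to 18835 CPM, the release channel Ryr2 at 382, 1221 and 1549 CPM and at 1441 to 1649 CPM, and the channel subunit Kcnip2 at 42.2, 76.6 and 286 CPM and at 256 to 269 CPM. The pump inhibitor Pln was below the tumour trained range in all 3 tumour libraries (1586, 3466 and 6340 against 7858 to 8472 CPM) and did not pass (log2 1.10 ± 0.43, adjusted p = 0.113). The same held for the mitochondrial coactivator gene Ppargc1a (84.9, 72.5 and 108 against 137 to 162 CPM, adjusted p = 0.0581). Both had the GC-poor split in trained 1, 2 and 3, with 7521, 4424 and 7592 CPM for Pln and 167, 91.9 and 122 CPM for Ppargc1a. Without tumour 1 and 2 their changes were 0.34 and 0.41, and with GC correction in addition -0.14 and 0.10.

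The median log2 change was 0.63 over 29 sarcomere genes, 0.61 over 22 calcium cycling genes, 0.65 over 47 oxidative phosphorylation genes, 0.54 over 21 tricarboxylic acid cycle genes and 0.74 over 20 cardiomyocyte markers, against -0.04 over all genes tested. Without tumour 1 and 2 these medians were 0.01, 0.17, -0.06, -0.10 and -0.02. All 3 tumour libraries lay below all 3 tumour trained libraries for 9, 10, 14 and 3 genes of the first 4 lists (13.5% of all genes). They lay above them for 0, 1, 0 and 0 genes (14.5% of all genes). In these 4 lists 2, 3, 0 and 0 genes rose (1.79% of all genes) and none fell. Of these risen genes Myh7b was the one that also passed against tumour 3 alone.

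**Figure D5:**
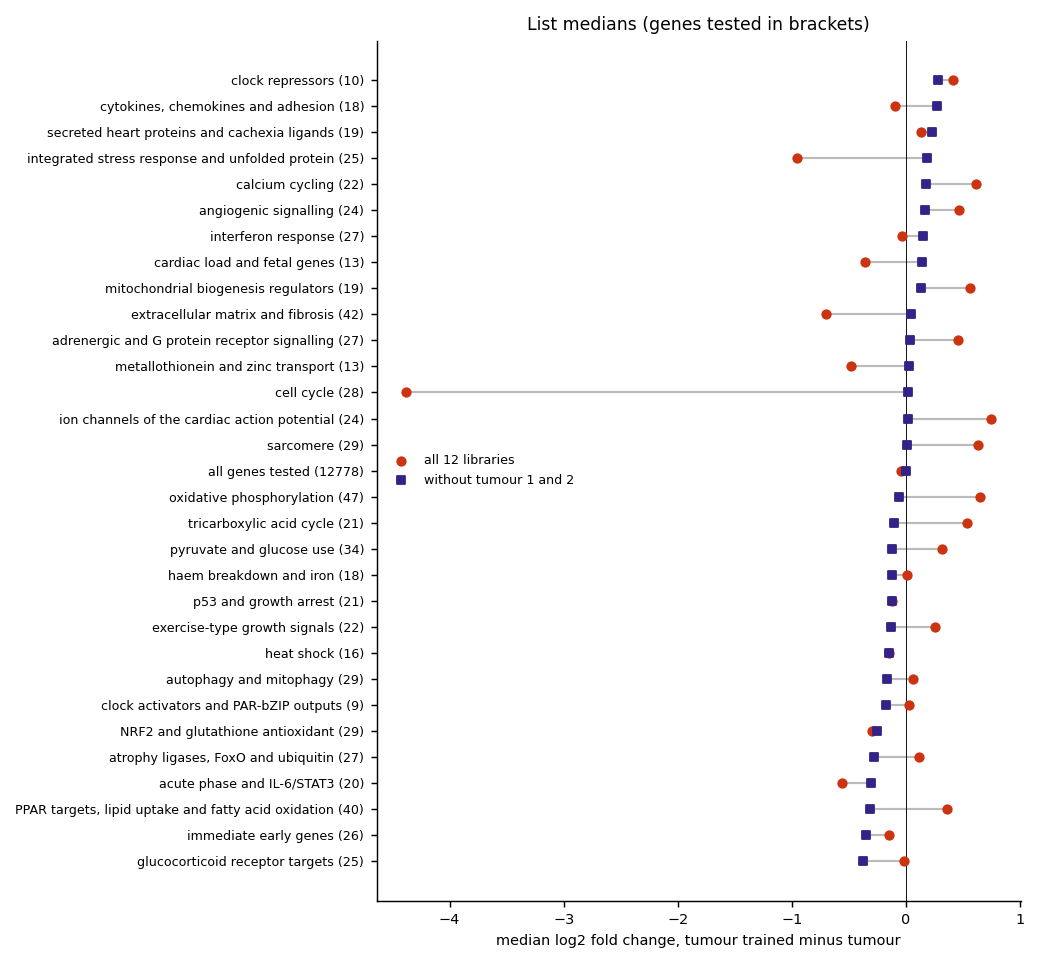
Median log2 change, tumour trained minus tumour (x), of each fixed gene list with at least 9 tested genes and of all genes tested (y), with all 12 libraries (red circles) and without tumour 1 and 2 (blue squares). The cell cycle list moves from -4.38 to 0.02 and oxidative phosphorylation from 0.65 to -0.06, whereas the NRF2 list is at -0.30 and -0.25.

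The training difference was set against that in tumour-free mice with an interaction term. It passed for 3 genes (0.0235%): Hmox1, Mt2 and Fkbp5. In tumour-free hearts these genes differed little between trained and control, with 11.4 ± 0.457 against 14.1 ± 1.45 CPM for Hmox1, 16.6 ± 3.03 against 15.5 ± 0.884 CPM for Mt2 and 15.5 ± 1.16 against 17.6 ± 0.726 CPM for Fkbp5 (SD, n = 3). For no other gene did the test separate the training difference of injected mice from that of tumour-free mice, and 1846 genes had an unadjusted p below 0.05 in it.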

How the data were processed

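RNA of 12 mouse hearts was sequenced, 3 libraries in each of 4 groups read from the titles. The tools named, per the submitters' processing notes, were HISAT2 2.2.1 and featureCounts, and the builds GRCm39 and mm10. The sources used here do not say which build applies, nor the annotation or strand setting, so overlapping genes and near-identical paralogs are uncertain. The authors deposited 1 table of estimated counts for 17397 genes, not normalized; 7.09% to 8.92% of a library's values were not whole, and all were rounded. The 24 symbols that had become dates were restored from gene IDs.

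All 12 libraries entered 1 edgeR 4.0.16 quasi-likelihood fit (R 4.3.3) with 1 mean per group, TMM scaling, the default filter by group (12778 genes kept) and 8 residual degrees of freedom. A gene was called when its p, adjusted by Benjamini-Hochberg, was below 0.05. The SE is the log2 change over the root of F. Library log2 differences use a pseudocount of 0.5 CPM. Every pair of replicates in the 2 groups compared differed by more than sampling noise, and the tumour libraries far more. Chi-square per gene was 103 to 370 between tumour libraries and 3.67 to 5.05 between tumour trained libraries. Counts of 12688 genes were simulated from 1 mean per gene, without the melanoma RNA shift of tumour 1 and 2. For tumour trained against tumour, 26% of 100 genes set to a 2-fold change were recovered. Of 100 set to 4-fold, 86% were recovered, and there were 7 false calls. GC content came from the longest GENCODE transcript, which 99.0% of the genes tested had. Named genes were up to 15 called genes a direction with mean log2 CPM of at least 1 and no overlap, ranked by the smallest of the 3 tumour differences, then list members by p and a panel of 24. Members, lists and rules were chosen with earlier results of these data known, and gene lists were given no set test. Alternatives were DESeq2 1.42.0, other scalings, filters and designs, and leaving out libraries; GC correction was added after seeing the data. Some members of the lists are not reported here.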

Additional observations from a re-analysis of the deposited data

Results flagged for a closer look

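For 3 genes the training difference in melanoma-injected mice differed from that in tumour-free mice by the interaction term of the edgeR fit. The log2 interaction was -3.63 ± 0.32 for Hmox1 (SE, adjusted p = 8.19e-04), -3.31 ± 0.24 for Mt2 (adjusted p = 2.05e-04) and -2.20 ± 0.27 for Fkbp5 (adjusted p = 0.0160). All 3 tumour libraries exceeded all 9 others for each gene. Over the 26 alternatives the tumour trained minus tumour change ranged from -5.01 to -3.63 for Hmox1, from -4.59 to -3.08 for Mt2 and from -3.74 to -2.23 for Fkbp5, with highest adjusted p of 0.0432, 0.0184 and 0.0941.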

How the results depend on the processing

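The count of 1156 genes (229 higher, 927 lower) was 2378 with DESeq2 (585, 1793), 7261 scaled to cardiomyocyte genes (28, 7233), 18 with the replicate block (4, 14), 2 in the fit of only the groups compared (0, 2), 4 for a minimum log2 change of 1 (0, 4) and 93 without tumour 1 and 2 (16, 77). Without tumour 1 and 2 it was 346 with GC correction (135, 211) and 81 with cardiomyocyte scaling (21, 60), both added after seeing the data. By library size alone 1455 were lower. Leaving out 1 library in turn gave 3 to 6619 (0 to 2879 higher, 3 to 3740 lower). Of the 1156 genes, 1149 had an adjusted p of at least 0.03; the cause of these shifts was not tested. Genes called lower and higher without overlap (598 and 229) were 2895 and 28 scaled to cardiomyocyte genes, and those with all 3 tumour libraries above or below tumour trained (1853 and 1722, called or not) 3524 and 135. The interaction count of 3 was 269 with DESeq2, 5 by library size alone, 1 scaled to cardiomyocyte genes, 32 without tumour 1 and 2 (113 with GC correction, 25 with cardiomyocyte scaling), and 2 to 4002 leaving out 1 library. Tumour and tumour trained libraries of the same number had correlations of -0.03, -0.16 and -0.09 in their deviations from the group means. The deviations of the tumour libraries hold their unequal melanoma RNA, so these correlations cannot decide whether the replicate numbers pair the libraries.

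Whichever library was left out, and without tumour 1 and 2, the calls held Hmox1, Mt2 and Fkbp5. None of the 30 genes named by rank turned direction under the 26 alternatives. Their ranking required all 3 tumour libraries on the same side of tumour trained, so leaving out libraries could hardly turn them. Over the genes of the text, 1408 gene-by-setting values kept their direction and side of the threshold, 1002 lost the call, 75 gained it and 59 turned direction. Without tumour 1 and 2 these log2 changes turned: Acta1 0.077, Ankrd1 1.61, Atp2a2 -0.30, Col1a1 0.34, Col3a1 0.85, Cpt1b -0.29, Fbxo32 -0.23, Gdf15 0.23, Kcnip2 -0.13, Myh6 -0.12, Myh7 0.21, Nppa 0.46, Postn 1.30, Ryr2 -0.029 and Trim63 -0.67. With GC correction in addition: Acta1 0.22, Ankrd1 1.60, Atp2a2 -0.29, Col1a1 0.48, Col3a1 0.97, Cpt1b -0.15, Fbxo32 -0.32, Gdf15 0.36, Myh7 0.36, Nppa 0.61, Pln -0.14, Postn 0.70 and Trim63 -0.56. With cardiomyocyte scaling in addition: Acta1 0.14, Ankrd1 1.68, Atp2a2 -0.24, Col1a1 0.39, Col3a1 0.91, Cpt1b -0.22, Fbxo32 -0.17, Gdf15 0.29, Kcnip2 -0.071, Myh6 -0.058, Myh7 0.28, Nppa 0.51, Postn 1.36 and Trim63 -0.61. With that scaling of all 12 libraries: Apln -0.62, Atp2a2 -0.21, Ccl21a -0.30, Ciart -0.0043, Cpt1b -0.33, Fbxo32 -0.56, Hlf -0.23, Nr3c1 -0.22, Ppargc1a -0.58, Ryr2 -0.27, Trim63 -0.58 and Vegfa -0.36. Leaving out 1 library gave -0.80 to 0.42 for Acta1, -0.80 to 0.93 for Ankrd1, -0.55 to 0.42 for Gabarapl1, -0.58 to 0.16 for Nppb and -0.25 to 0.88 for Trim63. With 3 libraries a group, of which 2 held melanoma RNA, changes seen in tumour 3 alone rest on 1 library, and 3 counts correspond to 0.225 to 0.339 CPM.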

Other observations

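The chemokine gene Ccl21a and its near-identical copy Gm1987 were read after their values were seen. Ccl21a was at 12.1, 30.0 and 2.86 CPM in tumour 1, 2 and 3, compared with 27.5 to 35.0 CPM in tumour trained, and its difference from tumour 3 passed (log2 3.43, adjusted p = 7.63e-05). Gm1987 was at 32.4 CPM in tumour 3 and listed at 0 in the other 11 libraries. How reads shared by such copies were divided is not stated, so neither value stands for a gene on its own.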
